A study of Mus musculus with 24 samples.

Results

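These are the data of the latest of the study's doxycycline exposures, in which the FGFR2b ligand trap was switched on in mouse embryos at embryonic stage E10.25 and the otocyst epithelium was collected 24 hours later, at E11.25. The otocyst is the epithelial vesicle that forms the inner ear. Experimental embryos, here R2b, had the genotype Rosa26rtTA/+;Tg(tetO-s(dn)Fgfr2b)/+, and controls, here con, were Rosa26rtTA/+. The doxycycline-dependent activator rtTA was thus carried by every embryo, and the mothers of both genotypes received the drug, first injected (1.5 mg/kg) and then fed in chow (200 mg/kg). The Rosa26 locus is active in most tissues, so that the trap was not restricted to the ear. Otocyst epithelium was pooled by genotype within each pregnant female, so 1 library is a pool of embryos and each litter gave 1 con and 1 R2b library. Of the 24 samples of the series, 8 belong to this exposure, and 6 of them, from the 3 litters labelled 061215, 070715 and 070915, were compared. Litter 061115 was left out after its reads were seen, and the libraries were therefore selected on 2 measured genes, Ighg1 and Fgfr2. The other exposures, E9.25 for 24 hours and E9.75 for 12 hours, both ending at E10.25, were used only for comparison.

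FGFR2b is the epithelial splice form of FGF receptor 2, which is activated mainly by FGF3, FGF7, FGF10 and FGF22. A secreted form that lacks the kinase domain binds these ligands away from the receptor on the cell. In many epithelia FGF receptors signal through the kinase ERK, whose activity drives transcription of PEA3-type ETS factors and of the pathway's own inhibitors, the Sprouty and Spred proteins and the Dusp phosphatases. In the developing ear, FGF3 and FGF10 are known for their part in otic induction and in the growth of the otocyst into its vestibular and cochlear parts.

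The transgene joins the FGFR2b ectodomain to an immunoglobulin heavy chain, so its transcripts give reads in both Fgfr2 and Ighg1 and identify the pools that hold it. Ighg1 had 25248, 23658 and 19155 reads in the R2b libraries of litters 061215, 070715 and 070915, against 28, 5106 and 16 in the con libraries of the same litters. Fgfr2 stood at 1270, 902 and 1010 CPM (counts per 1 M, library sizes scaled with TMM factors) in R2b and at 236, 413 and 214 in con. In litter 061115 the order was the opposite, with 15754 Ighg1 reads in the library labelled con and 1504 in the library labelled R2b, and Fgfr2 at 909 and 323 CPM. Ighg1 in the con pool of litter 070715 was 24.4% of that in its R2b pool, where it was 0.123% and 0.0883% in litters 061215 and 070915. The litters that were kept therefore also differ in how far their pools stand apart in these reads, and the con pool of litter 070715 is above the other con pools in both genes. Because these values chose the libraries, they are a description, and no test of either gene is read as a result.

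**Figure D1:**
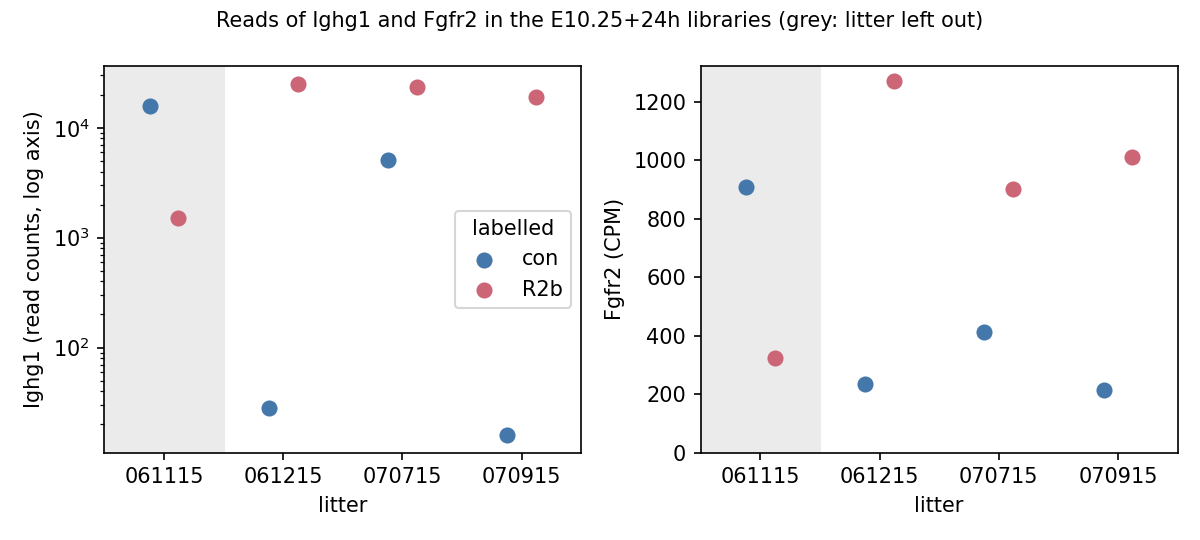
Reads of Ighg1 (left, read counts on a log axis) and Fgfr2 (right, CPM) in the 8 libraries of the E10.25+24h exposure, by litter, with blue points for libraries labelled con and red points for libraries labelled R2b. In litter 061115, shaded grey, the library labelled con has 15754 Ighg1 reads and the library labelled R2b 1504, the reverse of the other 3 litters.

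The 6 libraries held 19.3 to 28.2 M counts, and mitochondrial genes took 1.88% to 2.85% of them. Same-group libraries differed beyond counting error, with a chi-square per degree of freedom of 8.97 to 26.4 over genes averaging 20 counts or more. Counting error alone was therefore not used. The main model has a term for each litter, which takes up differences shared by both pools of a litter. Its error is how the R2b-to-con ratio varied among the litters. The defining markers of otic epithelium were present in all 6 libraries, at a summed 4650 to 6240 CPM in con and 5550 to 7200 CPM in R2b over 12 genes.

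The comparison of R2b with con asked what changes in the otocyst when FGFR2b ligands are trapped in this later window. In these 3 litters the genes that report FGF signalling were lower in R2b, with 11 of 14 called and Etv4, Etv5 and Spred3 falling most. Among cell cycle genes, 8 of 24 were lower as well, among them Ccnd1 and Mycn. Genes for the ligands Fgf3 and Fgf10, for retinoic acid synthesis (Aldh1a1 and Aldh1a3), for several dorsal otic factors and for the cell cycle inhibitor p21 (Cdkn1a) were higher. Of 15195 genes tested, 614 were called at a false discovery rate (FDR) under 0.05, which is 4.04% of all genes. Of these, 424 were higher in R2b (2.79% of genes tested) and 190 lower (1.25%), 1 of the higher ones being Fgfr2, whose place the choice of libraries fixed and which is no result, so that 613 others remain. The changes were mostly small, the median absolute log2 change among called genes being 0.49, and 247 were called with a change of at least 1.5-fold, 207 higher and 40 lower. In 527 of the 614 genes the 3 R2b and the 3 con libraries did not overlap, where 22.8% of all genes tested did not overlap, and 613 had the same sign in all 3 litters. The gene with the lowest FDR was Pcdh20, a protocadherin, at 32.5, 38.5 and 42.9 CPM in con and 86.1, 87.3 and 118 CPM in R2b, a log2 fold change of 1.35 (SE 0.07, FDR 0.0045). In pooled tissue, fewer cells of a type and less RNA per cell cannot be told apart.

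These calls rest on the pairing of con and R2b pools within a litter, and on the choice of litters. Without the litter in the model 0 genes were called by edgeR, with 2430 at an unadjusted p under 0.05. With litter 061115 kept, 0 of 15203 genes (0%) were called, with or without the litter as a block (199 and 175 at an unadjusted p under 0.05). In that blocked fit 613 of the 614 genes kept their sign. It contains the same 3 litters that chose these genes, so this agreement was largely fixed in advance. Without litter 061215, 070715 or 070915 in turn, 132, 877 and 0 genes were called (1998 at an unadjusted p under 0.05 without the last). Of the 614 genes, 422 changed least in litter 070715.

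The FGF readout genes were lower in R2b almost throughout: 11 of 14 were called, all lower, where 1.25% of all genes were called lower. Their median log2 fold change was -0.88, beside 0.006 over all genes tested. In 13 of the 14 genes the R2b and con libraries did not overlap, and all 11 called genes changed least in litter 070715. Earlier results of these libraries already showed this fall in 11 genes, so the values of each gene are given here. With litter 061115 kept the list median was -0.34 with 0 called, and the median within that litter alone was 1.30, against -0.89, -0.47 and -0.97 in litters 061215, 070715 and 070915. Every one of the 11 called genes was higher in the R2b-labelled library of litter 061115. The number called was 2, 13 and 0 when litters 061215, 070715 and 070915 were left out one at a time, 5 with robust dispersion and 7 with all exposures in one fit.

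The PEA3-type ETS factors are transcription factors that act at the end of the ERK cascade. Etv4 stood at 57.0, 54.3 and 51.9 CPM in the con pools and at 11.1, 30.8 and 13.2 CPM in the R2b pools, in the order of litters 061215, 070715 and 070915, which holds below too. The con values lay close together, and the R2b pool of litter 070715 was the highest of its group. The fitted log2 fold change of Etv4 was -1.66 (SE 0.27, FDR 0.0312). Etv5 showed the same order, with 112, 112 and 117 CPM in con and 25.1, 70.3 and 37.4 CPM in R2b, a log2 fold change of -1.46 (SE 0.25, FDR 0.0351). Etv1, at 8.94, 10.5 and 8.07 CPM against 4.74, 6.67 and 4.00 CPM, fell by 0.85 on the log2 scale (SE 0.13, FDR 0.0299). No group overlapped in any of the 3 genes.

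The Sprouty and Spred proteins are inhibitors that FGF signalling induces and that act upstream of ERK. Spred3 fell from 53.1, 51.5 and 63.2 CPM to 13.1, 33.2 and 25.7 CPM, a log2 fold change of -1.28 (SE 0.23, FDR 0.038). Spry4 had 8.42, 11.1 and 9.34 CPM in con and 4.37, 6.14 and 3.24 CPM in R2b, a log2 fold change of -1.09 (SE 0.17, FDR 0.0279). Spry1 and Spry2 followed at -0.95 (FDR 0.0407) and -0.90 (FDR 0.04). The R2b pool of litter 070715 again stood nearest to con in each of the 4 genes. Spred2 was tighter, at 67.8, 74.5 and 72.1 CPM against 35.8, 51.5 and 38.6 CPM, a log2 fold change of -0.78 (SE 0.09, FDR 0.0198). Spred1 changed least of the group, with a log2 change of -0.32 (SE 0.06, FDR 0.0433).

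The Dusp phosphatases remove phosphate from ERK itself. Dusp6 went from 108, 90.4 and 92.2 CPM to 40, 62.1 and 38 CPM, a log2 fold change of -1.07 (SE 0.16, FDR 0.0268), and Dusp4 from 38.6, 38.8 and 43.8 CPM to 28.3, 29.3 and 26.2 CPM, a log2 fold change of -0.53 with SE 0.08 (FDR 0.0311). The remaining 3 readout genes did not pass the test. Il17rd, which encodes the FGF receptor antagonist Sef, had a log2 fold change of -0.21 (FDR 0.0975). Flrt3, whose product binds FGF receptors, had a log2 fold change of 0.52 (FDR 0.0561) and was called higher with DESeq2 (FDR 0.00321) and without litter 070715 (FDR 0.0115). Egr1, an immediate early gene, was at 3.57, 2.41 and 2.22 CPM in con and 4.70, 2.73 and 5.44 CPM in R2b, with overlapping groups and an FDR of 0.194.

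**Figure D2:**
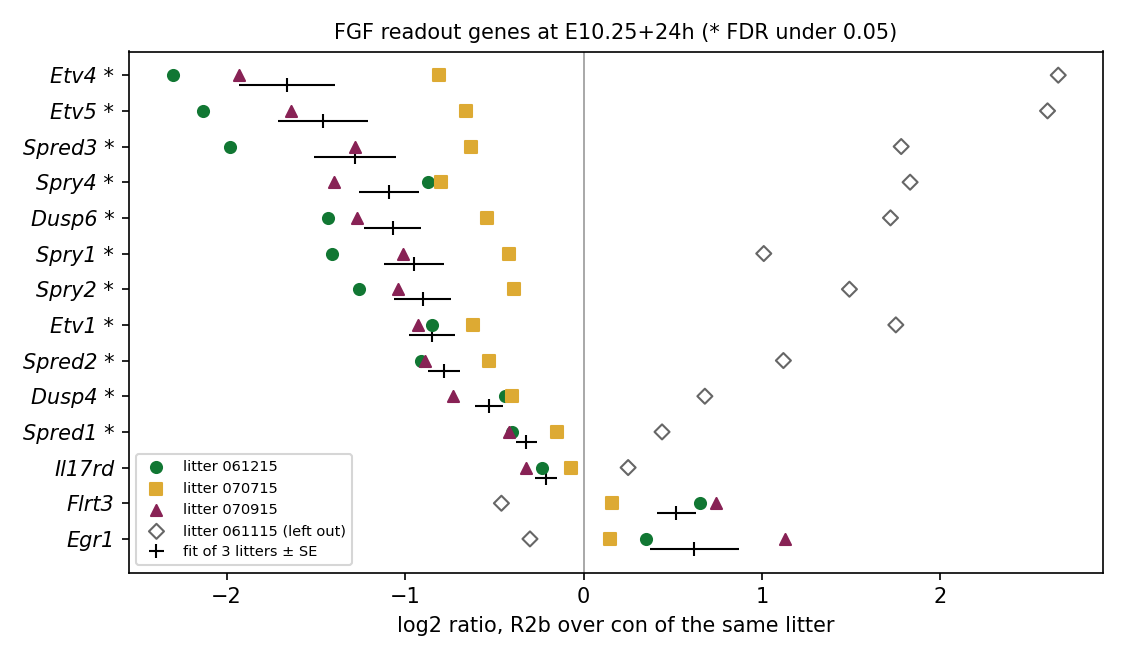
Log2 ratio of R2b over con within each litter for the 14 FGF readout genes at E10.25+24h, with filled symbols for the 3 litters compared, open diamonds for litter 061115 and black bars for the fitted log2 fold change ± SE. In the 11 genes marked with a star (FDR under 0.05), ratios in the 3 litters are all below 0, litter 070715 lies nearest to 0, and litter 061115 lies above 0.

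Capicua is a repressor that ERK releases from its targets, ETV genes among them, and many of its known sites contain TGAATG. The promoter stretches of the readout genes that hold this motif are shown because these genes moved together. Windows from 250 bases before to 50 after the start site were available from RefSeq (build GRCm38) for 10 of the 14 genes (all but Etv4, Spry4, Dusp4 and Egr1), in 12 windows. TGAATG on either strand was in 3 of the 12 windows, those of Etv5, Spred3 and Dusp6, and in 12.7% of all 32851 windows. CCGGAA, a core bound by ETS factors, was in 1 window, that of Spry2, and in 14.9% of all windows. The motif was chosen with the expression results known, and a match is only a description of the letters. In the stretches below, written 5′ to 3′ on the strand of the gene, capitals mark TGAATG or its reverse complement. They lie at chr7:29168648-29168707 for Spred3 (minus strand, bases -60 to -1 from the start site), chr10:99263081-99263130 for Dusp6 (plus strand, -150 to -101) and chr16:22438479-22438618 for Etv5 (minus strand, -250 to -111). No annotated exon overlaps any of them, and the stretches of Etv5 and Spred3 lie in introns of longer transcripts of the same genes.
Spred3: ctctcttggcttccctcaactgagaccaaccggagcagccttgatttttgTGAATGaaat
Dusp6: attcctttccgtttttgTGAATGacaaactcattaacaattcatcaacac
Etv5: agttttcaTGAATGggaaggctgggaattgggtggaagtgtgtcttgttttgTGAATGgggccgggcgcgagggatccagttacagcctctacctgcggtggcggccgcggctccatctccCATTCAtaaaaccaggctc
Spred3 and Dusp6 each show 1 motif in their stretch and Etv5 shows 3, 1 of them on the opposite strand. The window of Spred3 holds a further match outside the stretch, at -184.

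Of 15 genes for FGF ligands, receptors and adaptors, 2 were called, both higher, and both encode ligands. Fgf3 stood at 7.34, 4.29 and 5.62 CPM in con and at 16.4, 7.63 and 9.58 CPM in R2b, a log2 fold change of 0.93 (SE 0.13, FDR 0.0253). Fgf10 was at 60, 44.6 and 54.2 CPM in con and 75.7, 57.2 and 80.6 CPM in R2b, a log2 fold change of 0.42 with SE 0.06 (FDR 0.0277). The groups did not overlap for Fgf3 but did for Fgf10, whose lowest R2b pool lay below the highest con pool, so its call comes from the ratios within litters. The median of the 15 genes was 0.04.

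The 22 gene lists examined, together with Fgfr2 and Ighg1, make 340 tested genes. The shares called in each list can be read against the 4.04% of all genes. After the FGF readout genes, 8 of 19 dorsal and vestibular otic genes were called. So were 8 of 24 cell cycle genes, 4 of 12 markers of otic epithelium and 2 of 6 markers of epidermis. Next came 6 of 22 ventral, cochlear and prosensory genes and 6 of 25 Wnt pathway genes. None was called among 17 BMP pathway genes, 15 genes of the unfolded protein response, 11 blood markers and 6 hindbrain markers.

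**Figure D3:**
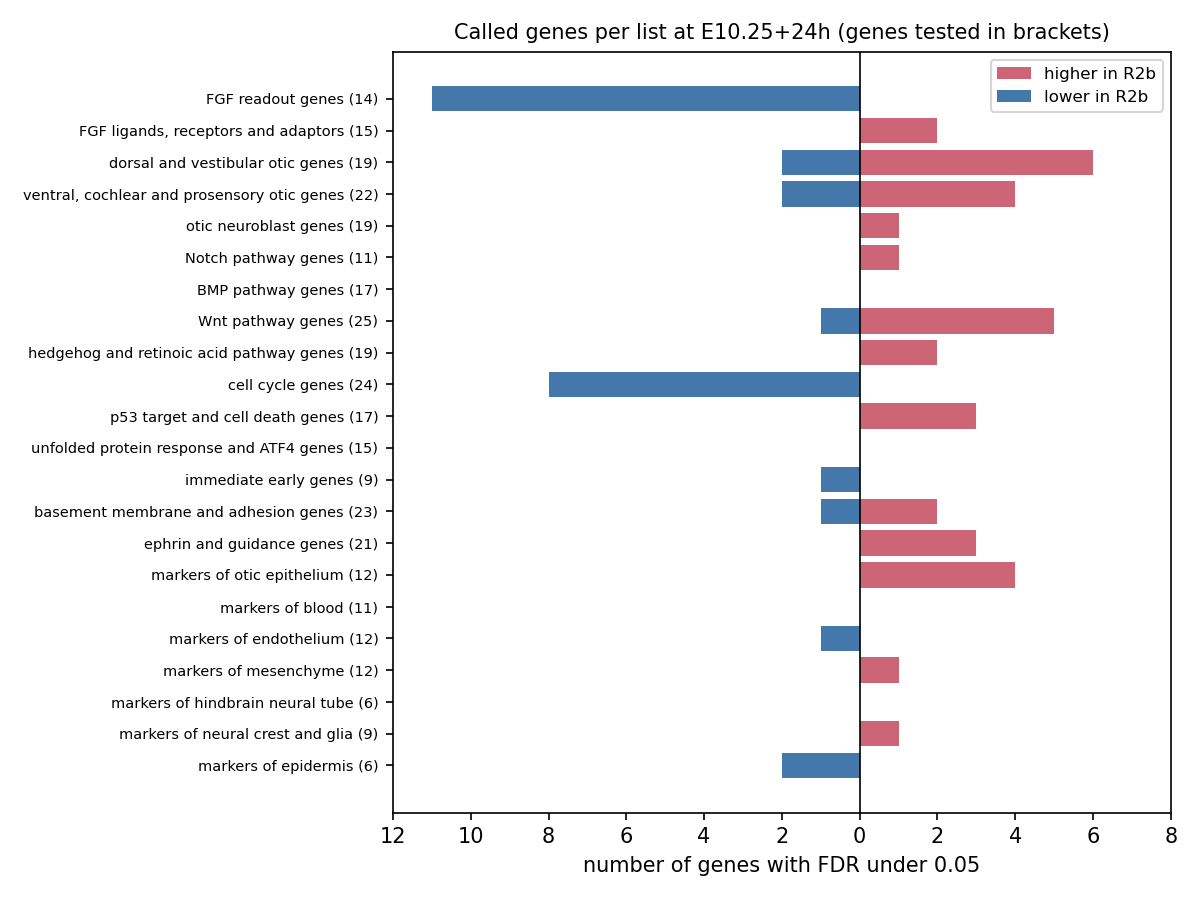
Number of genes called at an FDR under 0.05 at E10.25+24h in each of the 22 lists, with genes higher in R2b to the right in red, genes lower in R2b to the left in blue, and the number tested in brackets. FGF readout genes (11 lower) and cell cycle genes (8 lower) were called lower throughout, while dorsal otic genes were called 6 higher and 2 lower.

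Among genes of the dorsal and vestibular otocyst, 6 were higher and 2 lower, with a list median of 0.04. Wnt2b, a secreted Wnt ligand, rose from 69.4, 70.6 and 88.9 CPM to 164, 106 and 150 CPM, a log2 fold change of 0.86 (SE 0.12, FDR 0.024). Bmper, a secreted modulator of BMP signalling, rose from 77.8, 74.9 and 92.4 CPM to 169, 101 and 134 CPM, a log2 fold change of 0.69 (SE 0.13, FDR 0.0407). Neither gene's groups overlapped, and both changed least in litter 070715. The homeobox gene Irx5 was at 74.6, 80.4 and 76.3 CPM against 132, 108 and 109 CPM, a log2 fold change of 0.59 (SE 0.08, FDR 0.024), and its relative Irx3 had a log2 fold change of 0.47 (FDR 0.0481). Gbx2, a homeobox gene needed for dorsal otic structures, rose by 0.66 (SE 0.11, FDR 0.0351), with its lowest R2b pool (36.3 CPM) just below its highest con pool (36.8 CPM). The homeobox gene Msx2 rose by 0.51 (FDR 0.0413), and the 2 called lower were Sall4 and Lrig3. Without litter 061215 or 070915, 3 and 0 of the list were called.

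Of the ventral, cochlear and prosensory genes, 4 were higher and 2 lower, again with a median of 0.04. Dach1, a cofactor of the Eya proteins, rose from 199, 205 and 208 CPM to 318, 270 and 330 CPM, a log2 fold change of 0.58 (SE 0.07, FDR 0.0198). Otx1, a homeobox gene of the ventral and lateral otocyst, fell from 65.2, 56.2 and 59.3 CPM to 38.9, 41.8 and 36.1 CPM, a log2 fold change of -0.63 (SE 0.08, FDR 0.0208). Both genes had 3 R2b pools clear of the con pools. Rorb, a nuclear receptor, rose by 0.61 (SE 0.08, FDR 0.0231), and Jag1, the Notch ligand of the prosensory domain, by 0.52 (SE 0.09, FDR 0.0382), the latter with overlapping groups. Lin28b, an RNA-binding protein that blocks let-7 processing, fell by 0.34 on the log2 scale (FDR 0.028), also with overlapping groups. Otx2, the paralog of Otx1, was at 52.0, 59.1 and 68.9 CPM in con and 22.8, 55.2 and 46.2 CPM in R2b, with overlapping groups and an FDR of 0.114.

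Of 19 hedgehog and retinoic acid genes 2 were called, and both encode enzymes that make retinoic acid. Aldh1a3 rose from 69.0, 128 and 146 CPM to 197, 215 and 253 CPM, a log2 fold change of 1.01 (SE 0.14, FDR 0.0251), and Aldh1a1 from 34.1, 48.0 and 54.9 CPM to 75.7, 79.0 and 87.5 CPM, a log2 fold change of 0.84 (SE 0.10, FDR 0.0198). In both genes litter 061215 had the lowest con pool and no groups overlapped.

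Of the Wnt pathway genes, 5 were higher and 1 lower. Wnt11, a ligand of the non-canonical pathway, was at 3.36, 8.38 and 5.33 CPM in con and 8.59, 12.5 and 15.9 CPM in R2b, a log2 fold change of 1.14 (SE 0.20, FDR 0.0398). Notum, an enzyme that inactivates Wnt ligands, rose by 0.56 (SE 0.08, FDR 0.0248), Dkk3 by 0.58 (SE 0.11, FDR 0.0407) and Wnt5a by 0.44 (SE 0.08, FDR 0.0418). The groups overlapped for Wnt5a. The gene called lower was Rspo2, which strengthens Wnt signalling, at 31.7, 35.7 and 38.0 CPM in con and 10.5, 26.3 and 17.4 CPM in R2b, a log2 fold change of -1.02 (SE 0.20, FDR 0.0433). In the Notch list 1 of 11 was called: Heyl, a transcription factor induced by Notch, rose from 37.2, 30.8 and 28.2 CPM to 95.1, 47.8 and 61.7 CPM, a log2 fold change of 1.04 (SE 0.13, FDR 0.0208).

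Cell cycle genes moved by little, and those called were all lower: 8 of 24, with a list median of -0.25 and 18 of the 24 genes free of overlap, where 22.8% of all genes tested were. Ccnd1, the cyclin that couples growth factor signals to the G1 phase, went from 1040, 823 and 1010 CPM to 710, 697 and 626 CPM, a log2 fold change of -0.49 (SE 0.09, FDR 0.038). Mycn, a growth-promoting transcription factor, went from 117, 100 and 113 CPM to 68.3, 86.5 and 68.5 CPM, a log2 fold change of -0.57 with SE 0.11 (FDR 0.0433). The mitotic kinase gene Cdk1 fell by 0.33 on the log2 scale, the G1/S cyclin gene Ccne1 by 0.43, the replication helicase gene Mcm5 by 0.31 and the topoisomerase gene Top2a by 0.28, with FDRs of 0.0362, 0.038, 0.038 and 0.0433. In these genes, too, the highest R2b pool stayed below the lowest con pool. The list had 0 calls without litter 061215, 14 without litter 070715 and 0 without litter 070915, and 16 with DESeq2.

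Of 17 p53 target and cell death genes 3 were called, all higher. Cdkn1a, which encodes the cyclin kinase inhibitor p21, rose from 56.8, 59.1 and 64.2 CPM to 106, 92.5 and 96.3 CPM, a log2 fold change of 0.71 (SE 0.07, FDR 0.0198). Trp53inp1, a p53-induced nuclear protein, rose by 0.50 (SE 0.05, FDR 0.0198), and Bmf, a death-promoting Bcl2 relative, from 191, 229 and 237 CPM to 292, 283 and 308 CPM, by 0.43 (SE 0.07, FDR 0.028). The other 14 did not pass, and the list median was 0.05. Of the 9 immediate early genes, Phlda1 alone was called, lower by 0.59 on the log2 scale (SE 0.11, FDR 0.0423).

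Of 23 basement membrane and adhesion genes, 2 were higher and 1 lower. Cdh2 (N-cadherin) rose by 0.42 (SE 0.06, FDR 0.0274), Col4a5, a collagen IV chain, by 0.39 (SE 0.06, FDR 0.0327), and Frem1, a basement membrane protein, had a log2 change of -0.48 (SE 0.06, FDR 0.0198). Of 21 ephrin and guidance genes, 3 were called, all higher: Ephb1 by 0.80 (SE 0.14, FDR 0.0384), Slit2 by 0.47 (SE 0.06, FDR 0.0221) and Epha7 by 0.40 (SE 0.07, FDR 0.0358). Among 12 markers of otic epithelium, 4 were higher. Lmx1a, a LIM homeobox factor of the dorsal otocyst, rose from 347, 317 and 358 CPM to 562, 417 and 458 CPM, a log2 fold change of 0.48 with SE 0.07 (FDR 0.028). The otoconial protein gene Oc90 rose by 0.29 (SE 0.06, FDR 0.0475), Otol1 by 0.41 (SE 0.07, FDR 0.0349) and Sparcl1 by 0.80 (SE 0.16, FDR 0.0451), of which Oc90 and Otol1 had overlapping groups.

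Some markers of other cell types were high in particular libraries. The 11 blood markers, globin genes for the most part, summed to 5190 CPM in the R2b pool of litter 070715 and to 173 to 727 CPM in the other 5 libraries. All 11 were highest in that pool, 0 were called, and the list median was 1.32, with litter medians of -0.06, 3.13 and 0.58. The closely similar globin genes Hba-a1 and Hba-a2 may share reads.

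The 6 epidermis markers detected summed to 143 and 85.1 CPM in the con pools of litters 061215 and 070715 and to 20.6 to 27.8 CPM in the other 4 libraries. Trp63, which defines the epidermal lineage, was at 51.6 and 35.1 CPM in those 2 con pools and at 0.423 to 1.39 CPM elsewhere (log2 fold change -4.50, FDR 0.0543). Of the 6 markers 2 were called lower, Tfap2c (log2 fold change -4.68, SE 0.55, FDR 0.0199) and Grhl3 (log2 fold change -4.02, SE 0.73, FDR 0.0404). Tfap2c was at 4.91, 1.89 and 0.755 CPM in con and 0.0939, 0.0355 and 0.135 CPM in R2b, so the size of its change rests on very low R2b values. Grhl3 followed the same 2 con pools as Trp63, at 10.5, 11.1 and 0.236 CPM in con and 0.564, 0.284 and 0.315 CPM in R2b. Sfn, a 14-3-3 protein of stratified epithelia, had the largest fall among called genes whose mean log2 CPM was 1 or more and whose 3 litters all had one sign, and it showed the same pattern: 10.4, 7.38 and 0.566 CPM in con and 1.13, 0.887 and 0.360 CPM in R2b, a log2 fold change of -2.75 with SE 0.40 (FDR 0.0261). The part of epidermal cells in these results was not tested.

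Neuronal genes stood apart in the R2b pool of litter 070915. Of 19 otic neuroblast genes, 13 were highest in that pool and 6 in the R2b pool of litter 061215. The list summed to 520, 388 and 867 CPM in R2b and to 386, 346 and 383 CPM in con. Every R2b sum thus lay above every con sum, by little in litter 070715, and 18 of the 19 genes had a fitted change above 0. In the R2b pool of litter 070915, Elavl4, an RNA-binding protein of neurons, was at 42.4 CPM, against 5.13 to 5.4 CPM in the others. Pou4f1, a sensory neuron transcription factor, was at 20.7 CPM in that pool against 1.20 to 2.09 CPM. Neither was called (FDR 0.309 and 0.215). The list median was 0.77, with litter medians of 0.44, 0.27 and 1.55. The member that was called, Ntrk2, the receptor of the neurotrophin BDNF, was also highest in the R2b pool of litter 070915 but was not confined to it. It was at 19.3, 20.3 and 16.3 CPM in con and 47.7, 32.2 and 48.6 CPM in R2b, a log2 fold change of 1.18 (SE 0.16, FDR 0.0248). Lhx1, a LIM homeobox gene, was at 3.88, 3.89 and 3.54 CPM against 17.4, 5.75 and 8.09 CPM, highest in litter 061215 (FDR 0.0586).

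**Figure D4:**
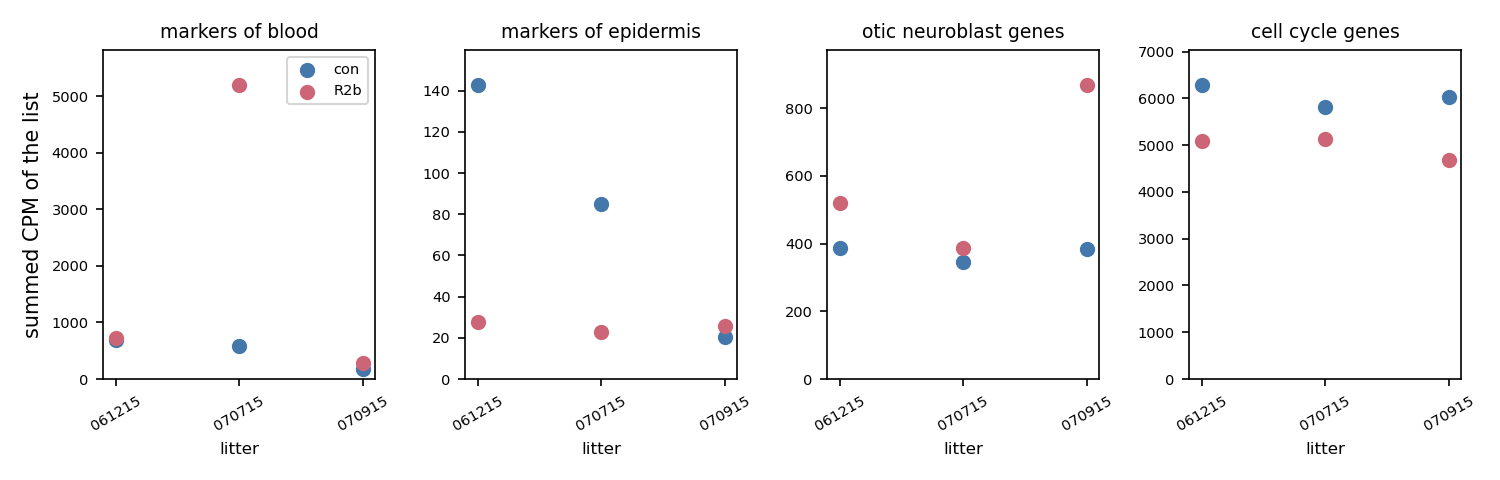
Summed CPM of 4 gene lists in each of the 6 libraries, by litter, with blue points for con and red points for R2b pools. Blood markers are high in the R2b pool of litter 070715 (5190 CPM) and epidermis markers in the con pools of litters 061215 and 070715 (143 and 85.1 CPM). Neuroblast genes are highest in the R2b pool of litter 070915 (867 CPM), and their sum is higher in every R2b pool than in every con pool. Cell cycle genes are lower in every R2b pool than in every con pool.

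Single members of other marker lists were called as well: Tek, the angiopoietin receptor of endothelium, lower (log2 fold change -0.97, SE 0.14, FDR 0.0261), Lum, the matrix proteoglycan lumican, higher (0.78, SE 0.05, FDR 0.00691) and Dct, an enzyme of melanin synthesis, higher (1.01, SE 0.12, FDR 0.0208). The other 11 endothelium, 11 mesenchyme and 8 neural crest and glia markers were not called. Summed levels overlapped between genotypes in the 3 lists, at 26.3 to 85.2 CPM in con and 36.4 to 74.9 CPM in R2b for endothelium and at 422 to 977 and 497 to 812 CPM for mesenchyme.

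Apart from Fgfr2 and Ighg1, the largest rise among called genes under the same 2 conditions was that of Man1a, a Golgi mannosidase that trims N-glycans, from 20.5, 69.1 and 23.2 CPM to 187, 206 and 230 CPM, a log2 fold change of 2.63 (SE 0.33, FDR 0.0208). Its con pool of litter 070715, which also had the most Ighg1 reads of the con pools, was the highest. Kera, the cornea-type proteoglycan keratocan, rose by 1.96 (SE 0.25, FDR 0.0209), Car3, a carbonic anhydrase, by 1.47 (SE 0.27, FDR 0.0415) and Btc, an EGF receptor ligand, by 1.46 (SE 0.18, FDR 0.0201). Edn1 (endothelin) rose by 1.40 and Enpep, an aminopeptidase, by 1.37, with FDRs of 0.0418 and 0.0264. In these 6 genes no groups overlapped. Islr2 (log2 fold change 2.02, SE 0.37, FDR 0.0404) and Stmn3 (1.36, SE 0.23, FDR 0.0349), both expressed in neurons, were highest in the R2b pool of litter 070915, at 8.99 and 11.8 CPM. Neither was called in the fit of all exposures (FDR 0.207 and 0.231). The con pool of that litter was also the highest con pool, at 1.42 CPM for Islr2 and 4.91 CPM for Stmn3. With litter 070915 left out of the blocked fit, Islr2 had a log2 fold change of 1.25 and Stmn3 of 1.54 (FDR 0.327 and 0.297). With only its R2b pool left out, in the fit without the litter block, they had 0.22 and -1.28.

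Gchfr, the feedback regulator of GTP cyclohydrolase, was also among the largest falls. It was at 6.10, 4.77 and 5.85 CPM in con and 0.798, 2.63 and 1.30 CPM in R2b, a log2 fold change of -1.87 (SE 0.37, FDR 0.0459). Prdm1, a transcriptional repressor, went from 29.3, 19.7 and 25.3 CPM to 7.56, 13.3 and 8.50 CPM, a log2 fold change of -1.34 (SE 0.24, FDR 0.0407). In both genes, as in the ETS factors, the R2b pool of litter 070715 was nearest to con. The long noncoding RNA Six3os1 fell by 1.66 on the log2 scale (FDR 0.0418, with overlapping groups) and the pseudogene Eif5al3-ps by 1.34 (FDR 0.04). The first lies next to Six3 on the opposite strand and the second may share reads with near-identical copies, so both are uncertain.

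The later exposure was then set beside the exposure from E9.25, which lasted equally long. Its 8 libraries come from 4 litters labelled 310, 315, 329 and 3716 and were sequenced under another request, so that only effects were compared and no control library is shared. There, 6086 of 14979 genes (40.6%) were called in the same blocked model. Of the 613 genes called at E10.25 apart from Fgfr2, 603 were tested at E9.25, and 566 were also called there with the same sign, of which 391 were higher and 175 lower. That is 92.3% of the E10.25 calls and 9.3% of the E9.25 calls. In 444 of the 566 genes the fold change was the smaller one at E10.25. Of the 603, 33 were not called at E9.25, and 4 were called in the opposite direction, namely Fam102b, C130021I20Rik, Gm26917 and Sfn.

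The sizes of the effects differed from litter to litter. Over the 1103 genes that rose by at least 1.5-fold at E9.25, the median log2 ratio within a litter was 0.60, 0.27 and 0.43 in litters 061215, 070715 and 070915, where it was 0.72 to 0.84 in the litters of E9.25 that chose these genes. Over the 300 genes that fell, it was -0.46, -0.15 and -0.22, against -0.81 to -0.66. In litter 061115 these medians were -0.37 and 0.40, so that genes higher at E9.25 were lower there and genes lower at E9.25 were higher. The smallest medians among the 3 litters kept were again those of litter 070715.

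The difference of the effects was tested itself. It passed at an FDR under 0.05 in 96 of 15560 genes (0.617%), counting Fgfr2, from which nothing is read because its values chose the libraries. Of the 94 fitted in both exposures, 74 (Fgfr2 included) had the same sign and a smaller effect at E10.25, 0 had a larger one of the same sign and 20 had opposite signs. The other 2, Srrm3 and Prph, did not pass the filter on low counts in 1 or both exposures. Cpxm2, a carboxypeptidase-like secreted protein, had log2 fold changes of 0.82 at E10.25 and 2.56 at E9.25, a difference of -1.74 (SE 0.19, FDR 0.00782). Hapln1, a linker of hyaluronan and proteoglycans, had 0.73 and 2.16, a difference of -1.43 (SE 0.16, FDR 0.00782), and Lrrtm1, a leucine-rich transmembrane protein, 0.45 and 1.50, a difference of -1.04 (SE 0.10, FDR 0.00782). All 3 rose in both exposures, with overlapping groups at E10.25 for Hapln1. Otogl, an otogelin-like protein of the inner ear, was not called at E10.25 (log2 fold change -0.05, FDR 0.676) but was lower at E9.25 (-1.30), a difference of 1.26 (SE 0.13, FDR 0.00782). Ppp1r12b, a myosin phosphatase subunit, had 0.13 (FDR 0.317) and -0.60, a difference of 0.73 (SE 0.08, FDR 0.00941).

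Among list members, 5 had effects that differed. Bmper rose less at E10.25 than at E9.25, by a difference of -1.15 (SE 0.15, FDR 0.0164), Aldh1a3 by -1.19 (SE 0.17, FDR 0.0171) and Oc90 by -0.59 (SE 0.09, FDR 0.0301). Otx1 had log2 fold changes of -0.63 and -1.50, a difference of 0.87 (SE 0.11, FDR 0.0125), and Otx2 of -0.60 and -2.28, a difference of 1.68 (SE 0.27, FDR 0.0301). No FGF readout gene differed, although the fitted change was smaller at E10.25 in 14 of 14. For Etv4 the values were -1.66 and -2.89 (a difference of 1.24 with SE 0.48 and FDR 0.278) and for Dusp6 -1.07 and -1.71 (difference 0.65, SE 0.24, FDR 0.255).

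**Figure D5:**
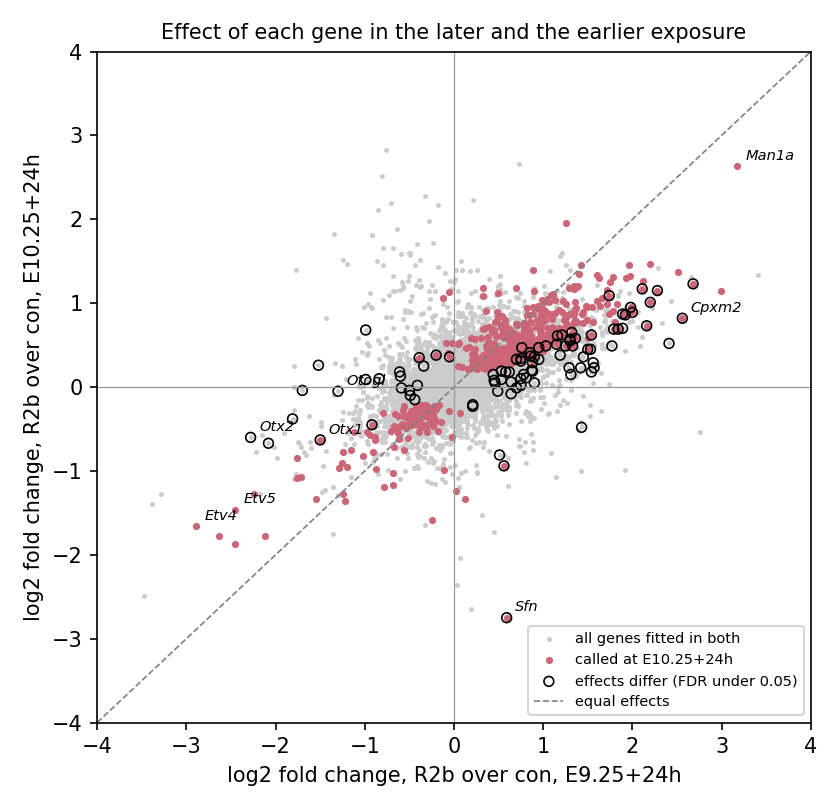
Log2 fold change of R2b over con at E9.25+24h (x axis) and E10.25+24h (y axis) for 14802 genes fitted in both, with genes called at E10.25+24h in red, the 93 genes other than Fgfr2 whose effects differ circled and the dashed line marking equal effects, and with 3 genes outside the axes. Most circled genes lie between the dashed line and the horizontal zero line, and Sfn lies far below it.

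The count of differing genes depended on the litters: it was 408, 40 and 50 without litters 061215, 070715 and 070915, 0 with litter 061115 kept and 0 without the litter block (2215 and 838 genes at an unadjusted p under 0.05). The 12-hour exposure from E9.75 had counts for both libraries in 3 litters. Against it, 0 of 15525 genes (0%) differed by edgeR, with 2255 at an unadjusted p under 0.05 and 270 called by DESeq2. Without the E9.75 litters 052015, 052715B and 052815 in turn, 1512, 25 and 0 genes differed (1511 at an unadjusted p under 0.05 for the last).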

How the data were processed

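Stranded, poly(A)-selected RNA of pooled otocyst epithelium was sequenced, per the labels' protocols. The deposited table holds raw read counts for 15736 genes, which the authors did not normalise, as tested on the values. Per the submitters' processing notes, Novoalign 2.08.03 and mm10 were used. The counting tool and any filter are not given in the sources used here. Symbols and coordinates come from GENCODE M21 (GRCm38), with 15522 symbols matched. Of 24 columns, 2 named no sample and were not used.

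Counts were fitted in edgeR 4.0.16 (R 4.3.3) with filterByExpr, TMM, glmQLFit and glmQLFTest, genotype and litter as terms, over the 6 libraries of litters 061215, 070715 and 070915, and called at a Benjamini-Hochberg FDR under 0.05. Litter comes from the labels, and each female gave both pools. Deviations from group means correlated at 0.48, 0.28 and 0.46 within litters and at -0.44 to -0.03 between them. Differences between exposures were contrasts within one blocked model. The E9.25+24h and E9.75+12h libraries entered these contrasts and the fit of all exposures. Those of E9.25+24h were also fitted alone, with the same blocked model, for the overlap. CPM values use TMM factors, and litter ratios add 0.5 CPM. Fitted fold changes use a prior count of 0.125. Scripts were tested on simulated counts of 15117 genes in 6 libraries with a litter block. The fit recovered 98% of genes changed 2-fold and 100% of those changed 3-fold, and made 23 false calls among unchanged genes.

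Genes named are every FGF readout gene, up to 4 called members per other list by smallest FDR, the 8 largest rises and 8 largest falls among called genes (mean log2 CPM of at least 1, same sign in every litter, without Fgfr2 and Ighg1), and up to 5 genes per difference test. Those 74 were joined by 16 named after their values were seen. A gene that met the rule is not reported here. The members, the lists and the tests were chosen with earlier results of these data known. The settings varied were the size factors (median of ratios), the filter (none, or a mean CPM of at least 1), no litter block, robust dispersion, DESeq2 1.42.0, all exposures in one fit, litter 061115 kept, single litters or libraries left out, and a 1.5-fold minimum.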

Additional observations from a re-analysis of the deposited data

Results flagged for a closer look

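The effect of the trap differed between the E10.25 and the E9.25 exposures, by edgeR's test of the difference of log2 effects (E10.25 minus E9.25), for several genes named here. In genes that rose in both, the difference was -1.15 for Bmper, -1.19 for Aldh1a3, -0.59 for Oc90, -1.04 for Lrrtm1, -1.74 for Cpxm2 and -1.43 for Hapln1. In genes that were lower at E9.25 it was 0.87 for Otx1, 1.68 for Otx2, 1.26 for Otogl and 0.73 for Ppp1r12b. Of the genes called in opposite directions, Sfn differed by -3.36, Fam102b by 0.59, C130021I20Rik by -1.51 and Gm26917 by 0.74. Sfn is the one that moved with the epidermis markers of 2 con pools. Srrm3, a neuronal splicing factor, was at 3.55 CPM in the R2b pool of litter 070915 and at 0.155 to 0.755 CPM in the other 5, and differed by 3.58 without passing the filter on low counts at E9.25 alone.

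In litter 061115, which no main comparison uses, the library labelled con held 15754 Ighg1 reads, where the con libraries of the other litters held 16 to 5106.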

How the results depend on the processing

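The 614 calls were matched within 1.5 times by median-of-ratios size factors (555), no filter (505), a mean CPM of at least 1 (469), robust dispersion (722), DESeq2 (740) and all exposures in one fit (450), which shared 553, 497, 466, 553, 512 and 347 genes with them. A 1.5-fold minimum left 247. There were 0 calls without the replicate block and 0 with litter 061115 kept, with or without that block. Leaving out litters gave 0 to 877, and single libraries without the block 0 to 24. Calls that were 69.1% higher became 84.1% higher without litter 061215 and 83.8% with the 1.5-fold minimum. Of the 74 genes named by rule and 16 others, 80 lost their call without the replicate block, 79 with litter 061115 kept and 22 with robust dispersion. Ppp1r12b changed sign with litter 061115 kept (-0.02, and -0.04 without the block), and ranged from -0.03 to 0.26 with single libraries left out. Otogl ranged from -0.23 to 0.21 with single libraries left out and was 0.01 without litter 061215. Without the litter block, Stmn3 ranged from -1.28, without the R2b pool of litter 070915, to 4.08, without its con pool. It was 1.54 with that whole litter left out of the blocked fit.

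The 96 differences from E9.25 became 98 with median-of-ratios size factors, 96 with no filter, 203 with DESeq2, 3 with all exposures in one fit, and 0 without the replicate block and with litter 061115 kept. They were 40 to 408 without single E10.25 litters and 8 to 44 without single E9.25 litters, an alternative added after seeing the data. Against E9.75, 680 differed with all exposures in one fit, 270 with DESeq2, and 0 to 1512 without single E9.75 litters. The cause of these changes was not tested. Pools of 3 litters leave few degrees of freedom, and reads carry no molecular identifiers. In the blocked fits, p-values measure how the R2b-to-con ratio varied among these litters.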

Other observations

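In the deposited table, the columns of the E10.25+24h libraries stand in 2 blocks of 4. The first block holds the R2b libraries of litters 061215, 070715 and 070915 and the library of litter 061115 labelled con, and the second holds the con libraries of the same 3 litters and the library of litter 061115 labelled R2b. No label was changed on this basis.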
